A study of Ichthyophis bannanicus with 29 samples.

Results

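The ovary-restricted genes of *Ichthyophis bannanicus*, a limbless burrowing amphibian of the caecilian order, were taken from messenger RNA levels in 10 tissues. A gene was included when it stood at 20 TPM or more (transcripts per 1000000) in both ovary libraries and when its median in each of the other 9 tissues was below 5% of its ovary mean. This rule chose 181 of 53113 assembled genes, 0.341% of the deposited table. The levels in ovary and the tissue medians elsewhere were therefore fixed by the choice and are given as a description without a test.

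The libraries were grouped by tissue alone. Ovary had 2 libraries, replicates 1 and 3, and testis, kidney, blood, heart, liver, lung, skin, spleen and stomach had 3 each, 29 in all. The labels used here state no age, sex, season or number of animals, nor whether equal replicate numbers mark 1 animal. P-values then measure only the spread between these libraries, which may be technical. For each gene the fit pools this spread within tissues over all tissues tested. A p-value or SE for kidney or testis is thus not the spread of that tissue's own libraries. TPM is a share of a library, and the number of reads behind a value is unknown.

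The vertebrate ovary holds germ cells, the oocytes, inside follicles of somatic cells that feed them and make steroid hormones. A growing oocyte stores messenger RNA and protein for the early embryo and builds a glycoprotein egg coat, so many transcripts of this organ are rare elsewhere in the body. *Ichthyophis* species lay large yolky eggs, and yolk precursor in egg-laying vertebrates is made in the liver and taken up by the oocyte. The deposited table gives each gene an assembly ID and pairs no gene name with it. The 34 marker symbols for ovary, testis and kidney therefore could not match an ID. The tissue labels could not be checked against defining markers, and no function is given to any gene. An assembled gene can be a fragment or can join near-identical copies.

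For the ovary-restricted genes, 1 library stood apart from its label. Kidney replicate 1 held all 181 genes at 1 TPM or more, at a median of 42.6% of their ovary mean, whereas kidney replicates 2 and 3 had medians of 0.038% and 0.080%. The main counts of the kidney and testis tests are therefore given with and without it. Several other counts below are given only with it included. Testis replicate 1 carried genes restricted to kidney, at a median of 7.42% of their kidney mean, but its summed level of the ovary-restricted genes was like that of the other testis libraries.

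Together the 181 genes made up 8.93% of all TPM in ovary replicate 1 and 12.6% in ovary replicate 3. In kidney replicate 1 they made up 3.87%. The testis libraries held 0.105%, 0.094% and 0.114%, in the order of replicates 1 to 3. The other 23 libraries held between 0.012% (stomach replicate 2) and 0.048% (spleen replicate 1). In summed TPM, the testis libraries lay above these 23, and both ovary libraries and kidney replicate 1 lay far above testis. In bulk tissue, fewer cells of a type and less RNA per cell cannot be told apart.

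**Figure D1:**
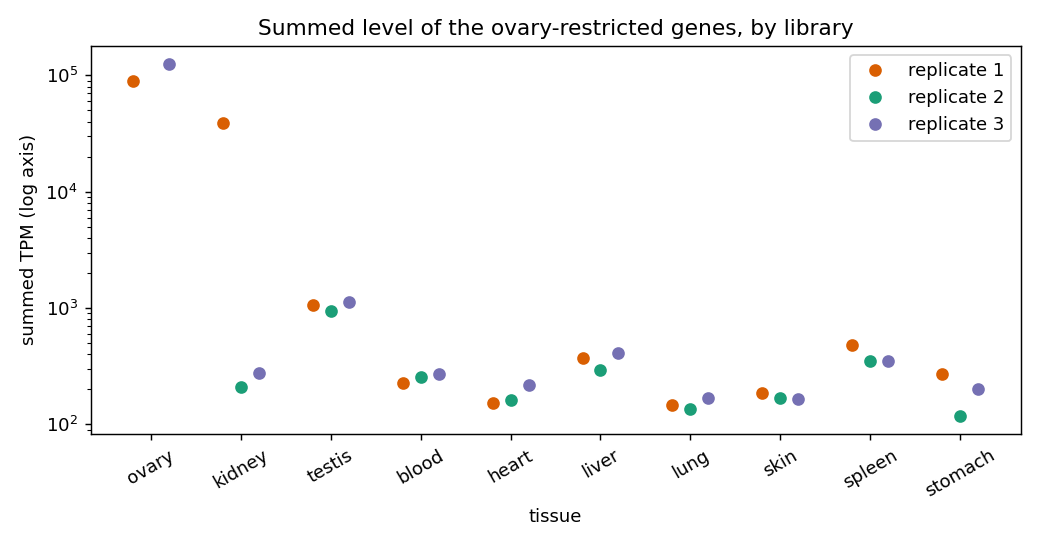
Summed TPM of the 181 ovary-restricted genes in each library (log axis), by tissue, with 1 point per library coloured by replicate number. Kidney replicate 1, at 38693 TPM, sits near the ovary libraries at 89328 and 126487 TPM, while kidney replicates 2 and 3 sit at 209 and 274 TPM.

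Most genes at this level in ovary were also present elsewhere. The level condition alone admitted 4954 genes. Of these, 298 had a testis median below 5% of the ovary mean and 381 had a kidney median below it, whereas 998 had a blood median below it. Testis was thus the tissue in which the fewest of these genes were low. Kidney replicate 1 entered the kidney medians of these counts, so kidney is not on a par with the other tissues here. A further 68 genes met the rule in every tissue except testis, against 11 for kidney, 10 for skin and 2 to 5 for each of the other 6 tissues. The 2 chosen genes with the lowest level had 20.5 and 20.6 TPM in their lower ovary library, and the 2 nearest genes left out had 19.4 and 19.2 TPM. The 2 chosen genes with the highest median elsewhere reached 5.00% of the ovary mean in kidney and 4.90% in testis, and the 2 nearest left out reached 5.02% and 5.09%, both in skin.

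The ovary means of the 181 genes ran from 22.7 to 14123 TPM with a median of 177 TPM. In the uppermost band, at 1000 TPM or more, 22 genes held 64.6% of the summed ovary mean. A middle band of 101 genes between 100 and 1000 TPM held 32.5%, and 58 genes under 100 TPM held 2.93%. The 10 most abundant genes of each library gave 48.7% of the summed level in ovary replicate 1 and 49.4% in replicate 3. The genes fell into 176 assembly components, of which 5 held 2 ovary-restricted genes each, so those 10 genes may share sequence and reads. In 27 of the components the assembly had also placed genes that did not meet the rule.

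The gene with the highest ovary mean, TRINITY_DN31514_c0_g1, was at 6560 TPM in ovary replicate 1 and 21687 TPM in replicate 3. In kidney replicates 1, 2 and 3 it was at 2042, 0.452 and 5.42 TPM, and in testis at 1.67, 0.543 and 1.84 TPM. Liver replicates 1, 2 and 3 held 21.1, 2.85 and 10.6 TPM, and no other library exceeded 3.13 TPM. Liver and kidney replicate 3 therefore held more of this transcript than testis did.

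TRINITY_DN50589_c0_g1, the next most abundant, was at 8061 TPM in ovary replicate 1 and 2983 TPM in replicate 3, the opposite order. Kidney replicate 1 held 3083 TPM of it, more than ovary replicate 3, and kidney replicates 2 and 3 held 2.76 and 5.998 TPM. Testis held 65.3, 42.0 and 224 TPM, all above the highest of the other 23 libraries, liver replicate 3 at 26.9 TPM. Among the abundant genes, TRINITY_DN1023_c0_g1 was singled out after its values were seen because it was present throughout. Its ovary levels were 7740 and 3132 TPM, its testis levels 319, 226 and 141 TPM, and every other library held at least 9.57 TPM. Stomach was lowest for it at 11.3, 9.57 and 12.1 TPM, and blood, at 81.0, 166 and 169 TPM, overlapped with testis, as did spleen replicate 3 at 169 TPM.

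**Figure D2:**
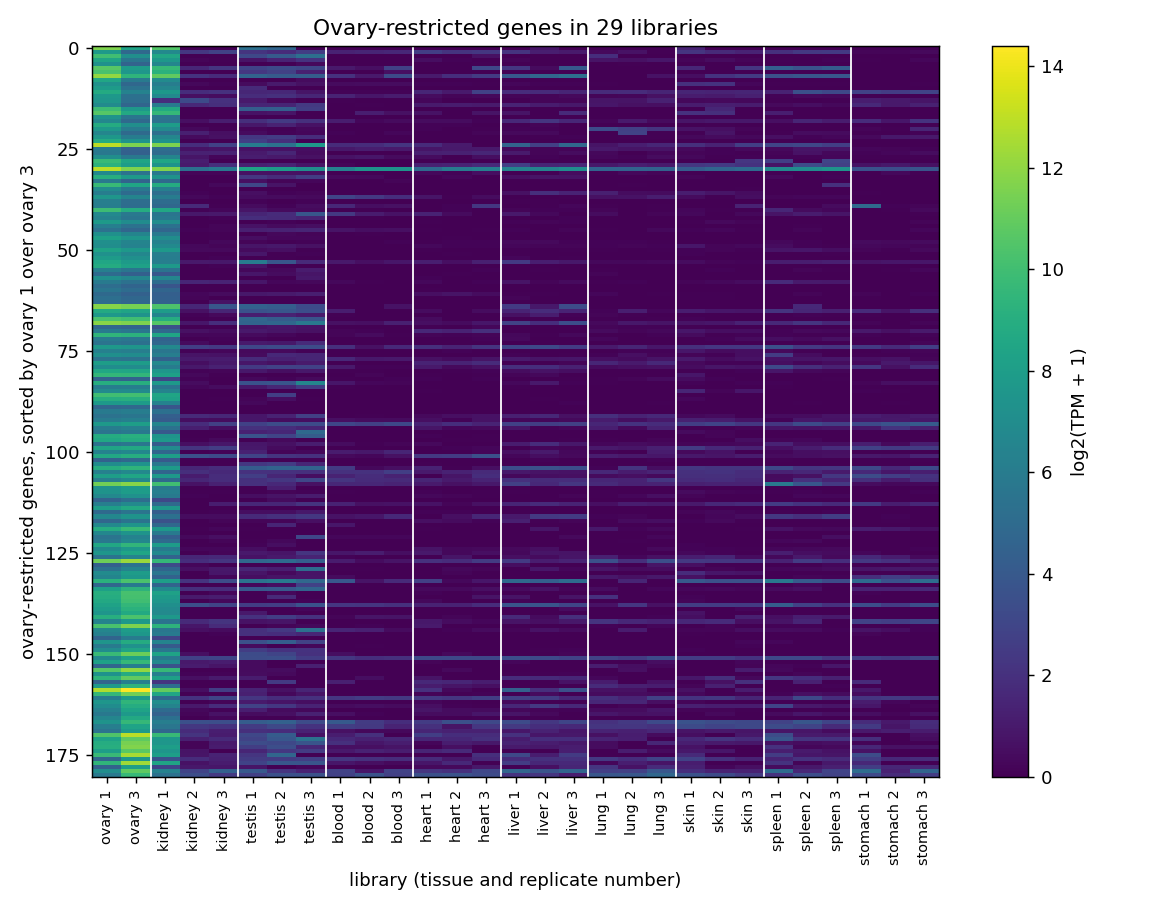
Levels of the 181 ovary-restricted genes, as log2(TPM + 1), with 1 row per gene sorted from higher in ovary replicate 1 (top) to higher in ovary replicate 3 (bottom) and 1 column per library. The kidney replicate 1 column follows the ovary replicate 1 column from top to bottom, kidney replicates 2 and 3 are near 0 for most genes, and testis shows scattered low levels.

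The 2 ovary libraries differed from each other for many of these genes. The log2 ratio of ovary replicate 1 over replicate 3 had a median of -0.14 and an interquartile range of -1.16 to 0.72 across the 181 genes, with an SD across genes of 1.46. Among all 4954 genes that met the level condition the median ratio was 0.26 and the SD 0.98. Ovary replicate 1 was 2-fold or more above replicate 3 for 40 of the 181 genes (22.1%), against 20.3% of the 4954 genes. Ovary replicate 3 was 2-fold or more above replicate 1 for 53 genes (29.3%), against 10.7% of the 4954. The other 88 genes were within 2-fold. With 1 library on each side, this difference has no replicate check.

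The share on each side depended on the scale. Over 19657 genes above 0 in every library, the median log2 ratio of ovary replicate 1 over replicate 3 was 0.81, and rescaling by the median of ratios moved all values by 0.83. On that scale 18 of the 181 genes were 2-fold or more higher in replicate 1 and 90 in replicate 3, against 3.79% and 33.1% of the 4954 genes. In TPM as deposited the sides were closer, and on both scales more of the 181 genes were higher in replicate 3.

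In TPM as deposited, the direction moved with abundance, among the 181 genes and among the others that met the level condition. Rescaling moves each log2 ratio by 0.83 towards replicate 3, so on that scale every band median lies on the replicate 3 side. Among the 22 genes at 1000 TPM or more, 12 were 2-fold or more higher in replicate 3 and 4 in replicate 1, with a median log2 ratio of -1.37. For the 101 genes of the middle band the numbers were 35 and 22, with a median of -0.30. Below 100 TPM, 6 genes were higher in replicate 3 and 14 in replicate 1, with a median of 0.18. For the genes that met the level condition and were not ovary-restricted, the medians were -0.88 at 1000 TPM or more (48 genes), 0.09 in the middle band (1204 genes) and 0.32 under 100 TPM (3521 genes). At 1000 TPM or more, 41.7% of those 48 genes were 2-fold or more higher in replicate 3, against 54.5% of the 22. For replicate 1 these shares were 12.5% and 18.2%. In the middle band 17.6% of the others were higher in replicate 3 and 22.7% in replicate 1, against 34.7% and 21.8% of the 101. Under 100 TPM the shares were 6.99% and 19.5%, against 10.3% and 24.1% of the 58 ovary-restricted genes. The 53 genes higher in replicate 3 held 49.4% of the summed ovary mean.

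TRINITY_DN75503_c0_g1 had the largest ratio towards replicate 1, with 3096 TPM there and 309 TPM in replicate 3, a log2 ratio of 3.33. It was listed at 0 in kidney replicates 2 and 3 and at 37.6, 23.9 and 0 TPM in testis, while kidney replicate 1 held 1431 TPM. TRINITY_DN11845_c0_g2 followed at 220 and 28.1 TPM, a log2 ratio of 2.97, with 110 TPM in kidney replicate 1. At the other end, TRINITY_DN6182_c0_g2 was at 55.3 TPM in replicate 1 and 800.4 TPM in replicate 3, a log2 ratio of -3.86. Kidney replicate 1 held 39.9 TPM of it and the highest remaining library, lung replicate 3, held 26.8 TPM. TRINITY_DN15457_c0_g4 was at 131 and 1797 TPM, a log2 ratio of -3.77, with 83.4 TPM in kidney replicate 1. Taken as a ratio, kidney replicate 1 lay nearer to ovary replicate 1 than to ovary replicate 3 for each of these extreme genes.

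In the 5 components with 2 genes, both genes leaned to the same ovary library in 3. The other 2 components split, with log2 ratios of -0.83 and 2.79 in one and -0.95 and 2.22 in the other.

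**Figure D3:**
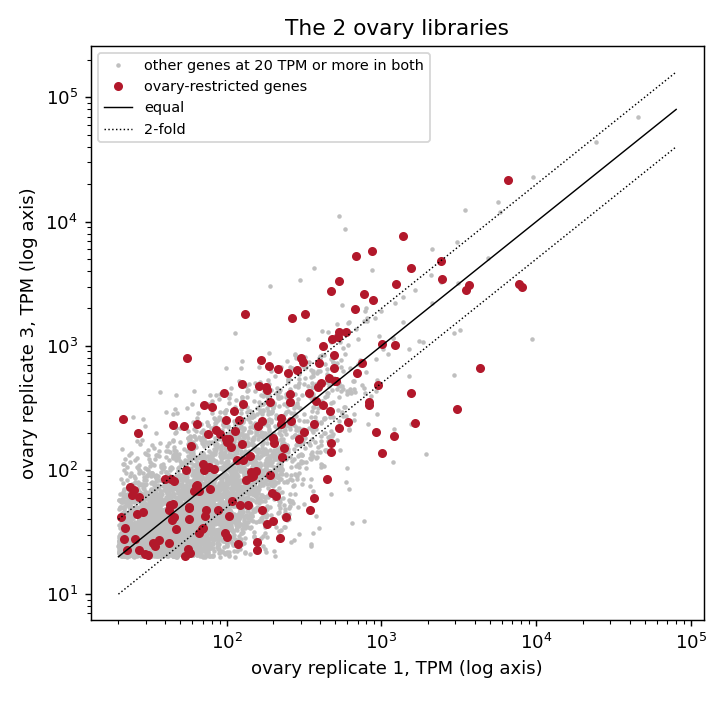
Level in ovary replicate 3 against ovary replicate 1, in TPM on log axes, for the 181 ovary-restricted genes (red) and the other genes at 20 TPM or more in both libraries (grey), with lines of equality and of 2-fold difference. Of the red points, 53 lie on or above the upper 2-fold line and 40 on or below the lower one.

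In kidney replicate 1 the 181 genes followed ovary replicate 1. The level in kidney replicate 1 was a median of 46.3% of that in ovary replicate 1, with an interquartile range of 39.7% to 56.5%, and it was below ovary replicate 1 for every one of the 181 genes. For 177 genes (97.8%) the ratio lay within 2-fold of its median, and the SD of the log2 ratio across genes was 0.56. Against ovary replicate 3 the median was 41.2%, the interquartile range 20.3% to 85.3%, and the SD 1.52, with 86 genes (47.5%) within 2-fold of the median. The 2 ovary libraries had 90 genes (49.7%) within 2-fold of the median of their own ratio. For scale, kidney replicates 2 and 3 had an SD of 0.51 across 376 genes restricted to kidney by the same rule. Leaving out the 10 genes that share a component gave SDs of 0.57 against ovary replicate 1 and 1.49 against replicate 3.

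The proportion to ovary replicate 1 was similar whichever ovary library was higher. Kidney replicate 1 stood at a median of 47.0% of ovary replicate 1 for the 40 genes higher in replicate 1, at 46.2% for the 88 genes within 2-fold and at 46.3% for the 53 genes higher in replicate 3. Against ovary replicate 3 the corresponding medians were 155%, 47.6% and 14.6%. By abundance, the median against ovary replicate 1 was 50.3% under 100 TPM, 46.1% in the middle band and 42.5% at 1000 TPM or more. After rescaling by the median of ratios the overall median was 48.6%. Across the 181 genes Pearson's r of log2 TPM with kidney replicate 1 was 0.96 for ovary replicate 1 and 0.73 for replicate 3, a description over genes, which are not independent replicates.

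**Figure D4:**
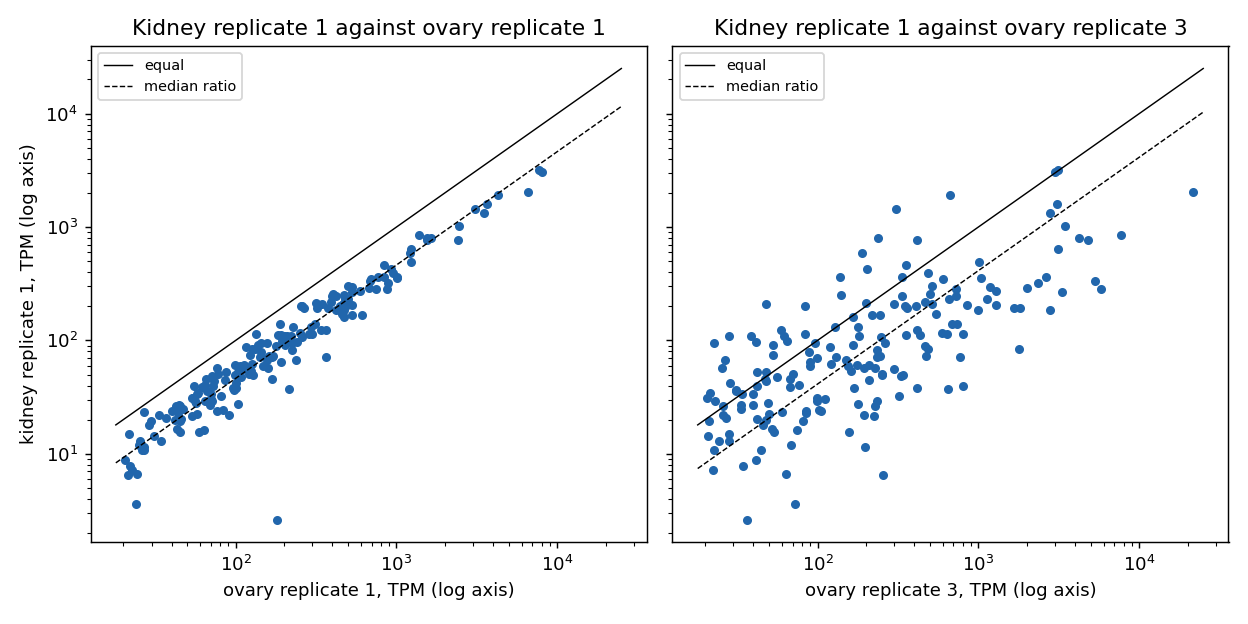
Level in kidney replicate 1 against ovary replicate 1 (left) and ovary replicate 3 (right), in TPM on log axes, with 1 point per ovary-restricted gene, a solid line of equality and a dashed line at the median ratio. On the left 177 of 181 points lie within 2-fold of the dashed line, and on the right 86 do.

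Among genes with an ovary mean of 100 TPM or more, TRINITY_DN4551_c0_g1 was highest in kidney replicate 1 relative to the ovary mean, at 105%. It was at 208 TPM there, at 346 and 48.0 TPM in the ovary libraries and at 0.131 and 0.074 TPM in kidney replicates 2 and 3. TRINITY_DN4671_c0_g1 followed, also at 105%, with 114 TPM in kidney replicate 1 and 133 and 83.7 TPM in ovary. The lowest was TRINITY_DN25907_c0_g4, at 2.63 TPM in kidney replicate 1 although ovary replicate 1 held 182 TPM and replicate 3 held 36.6 TPM. Kidney replicates 2 and 3 held 8.60 and 3.16 TPM of this gene, so it was the one most clearly off the proportion, at 1.45% of ovary replicate 1. Next lowest was TRINITY_DN11093_c0_g2, at 6.52 TPM in kidney replicate 1 with 21.3 and 255 TPM in the ovary libraries. These were the only 2 of the 181 genes below 5% of the ovary mean in kidney replicate 1.

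Kidney replicate 1 was the highest of the 27 libraries outside ovary for 176 of the 181 genes, against 10.3% of 50296 tested genes above 0 in at least 1 of these libraries. It was 2-fold or more above the other 26 for 171 genes, against 3.41% of 50365. Kidney genes were also read in it, chosen after seeing the data by a form of the rule that used neither kidney replicate 1 nor ovary. These 504 genes stood at 20 TPM or more in kidney replicates 2 and 3, with medians below 5% of that mean in the 8 tissues other than kidney and ovary. Kidney replicate 1 held them at a median of 72.8% of the mean of replicates 2 and 3 (interquartile range 53.0% to 87.3%). In ovary replicates 1 and 3 their median was 0%, and 2 and 18 of the 504 genes reached 5%. Ovary replicate 1 and kidney replicate 1 share a replicate number, but what that number stands for is not given in the labels, and its part in the result was not tested.

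Kidney was next set against the mean over 7 further somatic tissues, a contrast that uses no ovary library. The test, limma on log2(TPM + 1), covered the 50365 genes that reached 1 TPM in 2 or more of the 29 libraries, and the 181 genes all passed this filter through ovary. The rule had capped their medians in every tissue compared, which limits differences in both directions, so the shares over all genes are given as a background and nothing is read from the distance to them. Calls needed a log2 difference of at least 1 in size and an adjusted p (Benjamini-Hochberg) under 0.05. The high levels in kidney replicate 1 were known before this test, so the direction of the kidney calls was known too. A cap on the kidney median left kidney replicate 1 free and, for nearly all of the genes, held the other kidney libraries low. The number called without kidney replicate 1 was therefore also limited by the rule. Of the 181 genes, 145 were called higher in kidney and 0 lower, against 20.5% and 1.53% of all tested genes. Without kidney replicate 1, 9 of the 181 (4.97%) were called higher, against 15.8% of all, and 0 lower, against 1.12%. At an unadjusted p under 0.05, 18 were higher and 2 lower, and the share of all genes at this cut is not given. The 181 genes had a median log2 difference of 2.02 with kidney replicate 1 and 0.02 without it, against 0.44 and 0.35 over all genes. After rescaling 91 of the 181 (50.3%) were called higher, against 11.1% of all, and after rescaling without kidney replicate 1 it was 4 (2.21%), against 10.7%. The number called in kidney thus rested on 1 library.

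TRINITY_DN31825_c0_g1 had the largest difference, at 1331, 1.89 and 13.7 TPM in kidney replicates 1, 2 and 3 and 3523 and 2792 TPM in ovary. By limma its log2 difference was 4.83 ± 0.95 (SE), with an adjusted p = 0.00046, and it stayed past the threshold at 2.27 without kidney replicate 1. TRINITY_DN31514_c0_g1 had a log2 difference of 3.97 ± 1.13 (SE; limma, adjusted p = 0.0105). Without kidney replicate 1 its difference was 0.84 and did not pass (limma, adjusted p = 0.328).

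Testis held low levels of many of the ovary-restricted genes. The testis median was 1 TPM or more for 78 genes (43.1%), against 59 in kidney, 43 in liver, 38 in spleen, 36 in skin, 33 in stomach, 30 in heart and 29 each in blood and lung. In kidney that median is, for nearly all genes, the higher of replicates 2 and 3, since replicate 1 lay above both. Over all 50365 tested genes, 66.8% reached this level in testis, 70.4% in kidney and 47.6% (stomach) to 62.5% (heart) in the other 7 tissues. Testis thus also ranked high in detection over all genes, second to kidney. As a share of the ovary mean the testis medians were 0.436% at the midpoint of the 181 genes, and 62 genes stood at 1% or more. Testis had the highest tissue median outside ovary for 85 genes, followed by kidney with 27 and spleen with 11. Genes with a median of 0 in all 9 tissues were left out of this count. Its share over all tested genes is not given, so it describes the 181 genes only. By single library, leaving out kidney replicate 1, testis replicates 1, 2 and 3 were highest for 3.82%, 13.7% and 11.8% of 50179 tested genes. In the other direction, 78 genes were under 1 TPM in all 3 testis libraries and 15 were listed at 0 in all 3.

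The testis libraries resembled each other in the total. Their summed levels were 1054, 944 and 1138 TPM, and the 23 somatic libraries without kidney replicate 1 ranged from 117 to 480 TPM. In TPM as deposited, testis thus did not overlap with them. The median-of-ratios factors were 1.67, 1.80 and 1.34 in testis and 0.370 in spleen replicate 1, the somatic library at 480 TPM. Divided by these factors, the sum of spleen replicate 1 lay above all 3 testis sums, so the separation depended on the scale. The 2 genes highest in testis, TRINITY_DN1023_c0_g1 and TRINITY_DN50589_c0_g1, gave 36.5%, 28.4% and 32.0% of these sums. Without these 2 genes the testis sums were 669, 676 and 774 TPM and the somatic sums 87.7 to 358 TPM. Testis replicate 3 held 16 genes at 5% or more of their ovary mean, against 3 and 5 in replicates 1 and 2.

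Testis was compared with the mean of the 8 somatic tissues in the same limma fit. As tested, 23 of the 181 genes (12.7%) were called higher in testis and 0 lower, against 21.0% and 2.46% of all tested genes. At an unadjusted p under 0.05, 34 were higher and 0 lower. Kidney replicate 1 entered the somatic side of this contrast. Without it, 54 genes (29.8%) were called higher, against 21.5% of all, and all 23 genes called before were among them. Again 0 were called lower, against 2.56% of all, and at an unadjusted p under 0.05, 100 were higher and 2 lower. Leaving out testis replicate 1, 2 or 3 in place of it gave 13, 12 and 11 genes higher, against 19.8%, 16.9% and 21.3% of all. The share of all tested genes at the unadjusted cut is not given, so the counts there describe the 181 genes only.

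TPM in testis ran high over all genes, with a median log2 difference of 0.35 against 0.23 for the 181 genes. Without kidney replicate 1 these medians were 0.36 over all genes and 0.40 for the 181 genes. Rescaling with kidney replicate 1 kept gave medians of -0.13 and -0.02, and 14 of the 181 genes were then called higher, against 9.69% of all. With rescaling and without kidney replicate 1 the medians were -0.13 and 0.16, a setting chosen after seeing the data. There 36 genes (19.9%) were called higher, against 9.87% of all. The medians of the 181 genes in testis and in the somatic tissues were capped by the rule, so these shares are a description.

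All 3 testis libraries lay above all 23 somatic libraries without kidney replicate 1 for 40 of the 181 genes (22.1%), against 9.41% of the tested genes. They lay wholly below for 0, against 0.0318%. After rescaling 28 genes (15.5%) lay above, against 4.34%. With kidney replicate 1 included, 0 of the 181 genes lay above, against 6.66%. The rule had capped the medians of the 181 genes on both sides of this comparison, and the tested genes carry no such cap. These shares are therefore also a description, and nothing is read from the distance between them.

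With all libraries, TRINITY_DN27690_c0_g1 had the largest difference in testis, at 11.6, 13.1 and 98.0 TPM, with 510.1 and 517 TPM in ovary. Kidney replicate 1 held 210 TPM of it and no other somatic library exceeded 0.967 TPM. By limma its log2 difference was 4.16 ± 0.90 (SE), with an adjusted p = 0.00110, and without kidney replicate 1 it was 4.47 ± 0.37. TRINITY_DN50589_c0_g1 followed with 4.13 ± 1.10 (SE; limma, adjusted p = 0.00590), but without testis replicate 3 it did not pass, at 3.44 (limma, adjusted p = 0.0584). Without kidney replicate 1 it was the larger of these 2 genes, at 4.51 ± 0.43 (SE).

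**Figure D5:**
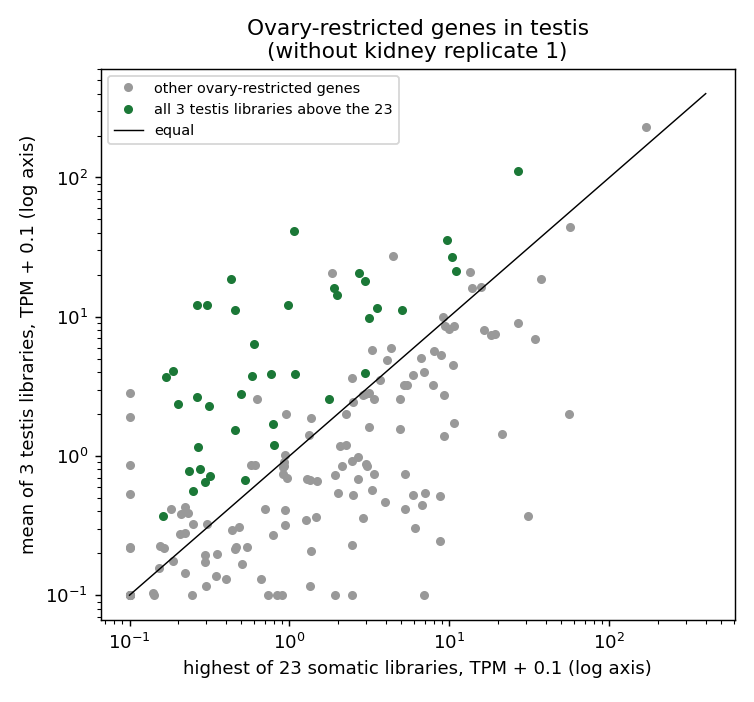
Mean of the 3 testis libraries against the highest of the 23 somatic libraries without kidney replicate 1, both as TPM + 0.1 on log axes, with 1 point per ovary-restricted gene and a line of equality. Drawn in green are the 40 genes whose 3 testis libraries all lie above the 23.

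The testis level was also read by ovary class and by abundance, as a description. The median share of the ovary mean in testis was 0.660% for the 40 genes higher in ovary replicate 1, 0.443% for the 88 within 2-fold and 0.357% for the 53 higher in replicate 3. By abundance it was 0.754% under 100 TPM, 0.333% in the middle band and 0.428% at 1000 TPM or more. For comparison, 88 genes were restricted to testis by the same rule, and their medians in ovary replicates 1 and 3 were 0.031% and 0.162% of the testis mean.

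Elsewhere most of the ovary-restricted genes were low, which the rule had required of the tissue medians. Leaving aside kidney replicate 1, 142 of the 181 genes (78.5%) were below 5% of the ovary mean in all of the other 26 libraries outside ovary, 53 were below 1 TPM in all of them, and 7 were listed at 0 in all of them. In the 23 somatic libraries 86 genes were below 1 TPM throughout, and 20 of these had a testis median of 1 TPM or more. The number at 1 TPM or more ran from 24 (blood replicate 2 and stomach replicate 2) to 54 (kidney replicate 3) over these 23 libraries. In testis it was 81, 83 and 79. Blood and stomach had the most genes at a median of 0, with 101 each, against 36 in testis and 44 in kidney. Over all tested genes the shares at 1 TPM or more were 71.5%, 68.2% and 60.1% in testis and 36.5% to 71.0% in the 23 libraries. Over the 26 libraries, testis replicates 1, 2 and 3 were the highest for 16.0%, 17.7% and 18.2% of the 181 genes, against 3.82%, 13.7% and 11.8% of 50179 tested genes. Spleen replicate 1, the next, was highest for 6.63%, against 1.61%. Spleen replicate 1 also had the fewest genes of the 29 libraries at 1 TPM or more, 18410.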

How the data were processed

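Polyadenylated RNA was bound to poly-T beads and made into NEBNext Ultra libraries, per the labels' protocols. The authors deposited TPM per assembled gene, per the file headers, and each column sums to 1000000. The sources used here give no assembler, aligner, quantifier or filter, and the IDs have the form that Trinity gives. Tissue and replicate came from the sample titles, and every column matched 1 sample. Genes reaching 1 TPM in 2 or more libraries were tested on log2(TPM + 1), which understates changes of low genes, with limma 3.58.1 in R 4.3.3 with an intensity trend, over the 27 libraries outside ovary. The contrasts use no ovary library, but the rule capped the members' medians in all 9 tissues. The calling step was tested on simulated data with normal noise and with changes added only to genes of higher mean level. That test does not cover calls on genes near 0. Rescaling used median-of-ratios factors over genes above 0 in every library. Counts and figures were made with pandas 2.3.3, numpy 2.4.6 and matplotlib 3.10.9 in Python 3.11.15. The members, lists and tests were chosen with earlier results of these data known. IDs named were at most 2 per direction: the highest ovary means, the extremes of the ovary ratio and of kidney replicate 1, and the largest called differences. TRINITY_DN1023_c0_g1 was named after its values were seen. Alternatives were other thresholds of the rule, a pseudocount of 0.1, no filter, rescaling, a replicate block, all 29 libraries in the fit and each library left out. No sequences or coordinates are given, since no reference was used here.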

Additional observations from a re-analysis of the deposited data

How the results depend on the processing

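The number of ovary-restricted genes, 181, depended on the thresholds and more on how kidney replicate 1 entered. It was 94 with 1%, 115 with 2% and 283 with 10% of the ovary mean, and 92 with 100 TPM as the minimum. Taking the mean of each tissue in place of the median gave 14 genes, and the highest library gave 1. Leaving out 1 library gave between 5 (without kidney replicate 2 or 3, when kidney replicate 1 enters the median of 2) and 321 (without ovary replicate 1). Leaving out kidney replicate 1 itself gave 182. Genes 2-fold higher in ovary replicates 1 and 3 numbered 40 and 53, 18 and 90 after rescaling, and 16 and 16 at 4-fold. Among all 4954 genes that met the level condition, 135 and 82 passed at 4-fold. Members called higher in testis numbered 23, with 39 at a pseudocount of 0.1 and 14 after rescaling. At that pseudocount 11635 of 50365 tested genes were called higher, and after rescaling 4846 of 49989. The members called numbered 36 after rescaling without kidney replicate 1, against 4916 of 49802 tested genes. With 1 library left out they numbered 11 to 54, against 8442 to 11116 over all tested genes. Without 3 libraries set apart as carrying genes of other tissues, 54 members were called, against 10099 of 49836 tested genes. These 3 were liver replicate 2 and the first kidney and testis replicates, and for liver replicate 2 no such values are given here. Members called higher in kidney numbered 145, with 91 after rescaling, 4 after rescaling without kidney replicate 1, 9 without those 3 libraries, and 9 to 176 with 1 library left out. In the same order, all tested genes called higher numbered 10304, 5563, 5316, 7776 and 7923 to 10788. Over all tested genes, rescaling gave 4846 higher and 2671 lower in testis in place of 10599 and 1240, and 5563 higher and 1643 lower in kidney in place of 10304 and 769. Members called lower stayed at 0 in both contrasts under each alternative run. The rule had capped their medians in every tissue compared, which limits such calls, so nothing is read from this. With the replicate number as a block 25 members were called higher in testis and 147 in kidney. Over all tested genes these numbers were 10575 and 10291. Of 108 pairs of same-numbered libraries of different tissues, 7 had deviations that correlated over 0.1. The mean r was 0.016 for these pairs and -0.0079 for pairs of unlike number, so the numbers were not taken as pairs. Yet 18 of 27 libraries correlated best with their own number, a hint from the data and not from the labels. The ovary libraries were not in this check, so it does not bear on ovary replicate 1 and kidney replicate 1. With 2 ovary libraries and no known depth, levels near 0 cannot be given an interval.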
